A study of Mus musculus with 10 samples.

Results

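Slitrk2, Endou, Phyhipl and Fam19a2 are 4 genes of the 23284 in the count table that had counts in blood endothelial cells of the lymph node (LN-BEC) and next to none in the lymphatic endothelial cells of the same organ (LN-LEC). They were selected on their measured counts in exactly these populations, so the LN-BEC and LN-LEC values below describe the genes and carry no test. The third population, lymphatic endothelium sorted from the diaphragm (D-LEC), had no part in the selection, but any comparison with it has a selected population on its other side and is given as a description too. The data are RNA-seq counts from 10 libraries, 3 each of LN-BEC and D-LEC and 4 of LN-LEC, of untreated C57BL/6 mice aged 6 to 8 weeks, with no transgene or knockout in any group. LN-LEC and LN-BEC came from nodes of the gut and of several peripheral sites that were combined, and all cells were depleted of CD45+ cells and sorted as CD45- CD31+, with podoplanin (PDPN) present on LEC and absent from BEC. Each library was made from several mice, so the spread between libraries is a spread between pools, and nothing in the labels ties a pool of one population to a pool of another. In such bulk samples, fewer expressing cells and less RNA per cell cannot be told apart.

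The library labels were checked against marker genes before anything else. Summed over 7 BEC markers, the normalized count (counts divided by a size factor for each library) was 146041 to 149334 in LN-BEC, 1978 to 3493 in LN-LEC and 8127 to 10466 in D-LEC. LEC markers ran the other way, from 3240 to 10199 in LN-BEC against at least 134735 in each LN-LEC and D-LEC library, with Ccl21a at 0 in every library. Markers of fibroblasts and leukocytes were also present. The fibroblast markers summed to 2318 to 9373 in LN-BEC, 4674 to 9035 in LN-LEC and 2849 to 8270 in D-LEC. LN-BEC replicate 2 held the lowest of these sums, and their part in the levels of the 4 genes was not tested. The T cell markers summed to 205 to 390 in LN-BEC, 35.5 to 51.5 in LN-LEC and 8.02 to 35.3 in D-LEC, and Ptprc, which encodes CD45, read 208 to 324, 33.7 to 50.8 and 9.09 to 21.4 in the same order. LN-BEC replicate 3 stood apart from the other LN-BEC libraries in markers of LEC and epithelium. It held the highest LEC marker sum. Over the skin epithelium list it summed to 1384, against 223 and 285 in the other LN-BEC libraries. Most of the 1384 came from Epcam (914) and Cdh1 (394). The keratin genes were low, with Krt5 at most 14.7, Krt14 6.3 and Krt10 55.7 in any LN-BEC library. The sum therefore reads as epithelium and not as skin in particular. LN-LEC replicate 4 likewise held the highest sum of its group on this list, 471 against 185 to 207. In the labels these 2 libraries carry the last library numbers of the series, apart from the rest of their groups, and what the numbering stands for is not given in the sources used here. Values that lean on them are given with and without them.

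Blood vessels of the lymph node include high endothelial venules, where lymphocytes leave the blood across a tall, cuboidal endothelium, and the arterioles and capillaries that feed them. The 4 genes belong to different molecular classes, and none of them is a classical marker of these vessels. Slitrk2 encodes a transmembrane adhesion protein with leucine-rich repeats that is best known from synapses, where SLITRK proteins bind receptor phosphatases of the LAR type. Fam19a2 (now TAFA2) encodes a small secreted protein of a chemokine-like family that is mostly studied in the brain and whose members bind neurexins. Phyhipl encodes a relative of the protein that interacts with phytanoyl-CoA hydroxylase, a peroxisomal enzyme of branched fatty acid breakdown. Endou encodes an endoribonuclease that cleaves RNA at uridines and that has also been studied in lymphocytes.

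The starts of 3 of the 4 genes have an entry in the RefSeq promoter table of the GRCm38.p6 build, and Endou has none. The 250 bases before the first listed start are shown as a description. Which start is used in these cells was not examined. Capitals mark GGAAG or its complement, the core letters bound by ETS factors.
Slitrk2 (chrX:66649068-66649317, plus strand): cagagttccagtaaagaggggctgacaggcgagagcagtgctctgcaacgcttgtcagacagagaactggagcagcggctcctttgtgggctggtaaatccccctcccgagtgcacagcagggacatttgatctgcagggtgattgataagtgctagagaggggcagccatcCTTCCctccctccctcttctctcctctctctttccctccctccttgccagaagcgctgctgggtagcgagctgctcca
Fam19a2 (chr10:123263826-123264075, plus strand): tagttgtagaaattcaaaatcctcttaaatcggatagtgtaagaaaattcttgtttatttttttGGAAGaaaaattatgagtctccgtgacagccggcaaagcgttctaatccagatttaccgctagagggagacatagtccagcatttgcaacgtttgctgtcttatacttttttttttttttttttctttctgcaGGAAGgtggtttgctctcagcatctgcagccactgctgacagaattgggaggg
Phyhipl (chr10:70599292-70599541, minus strand): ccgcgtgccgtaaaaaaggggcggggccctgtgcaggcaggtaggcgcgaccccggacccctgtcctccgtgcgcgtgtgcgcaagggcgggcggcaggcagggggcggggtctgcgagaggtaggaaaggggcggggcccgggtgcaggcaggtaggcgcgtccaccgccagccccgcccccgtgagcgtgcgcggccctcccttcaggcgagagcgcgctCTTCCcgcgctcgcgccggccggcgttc

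The Phyhipl window held 35 CpG dinucleotides and 76.8% G and C, and 97% of the 32851 windows in the table held fewer CpG. The Slitrk2 and Fam19a2 windows held 6 CpG each, the median of all windows, with 58% and 38.8% G and C. GGAAG, read on both strands, occurred once in the Slitrk2 and Phyhipl windows and at 2 places in the Fam19a2 window, and 64.1% of all windows held it. Of the other letters searched on both strands, ACAAAG (SOX) was present in the Slitrk2 window only, as in 16.5% of all windows. CACCC (KLF) was in the Slitrk2 and Phyhipl windows, as in 52% of all windows, and the E-box CANNTG was in the Slitrk2 and Fam19a2 windows, as in 66.2%. The RBPJ letters TGGGAA were in none of these windows and in 21.6% of all windows. The letters of the nuclear receptor motif, AGGTCA, were likewise in none here and in 14% of all windows. The same held for the GATA letters AGATAA, with 9.99%. A match is a run of letters and not a site, and the searched letters can overlap each other. Slitrk2 and Phyhipl each have a second listed start, and the window before the second start of Phyhipl held no CpG at all, while that of Slitrk2 held 15.

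In the mm9 build used for the counts, Slitrk2 lies at chrX:63902493-63914577 on the plus strand with 3 exons and 7937 exon bases. Endou lies at chr15:97541450-97561836 on the minus strand with 11 exons and 2718 exon bases. Phyhipl lies at chr10:70020434-70062039 on the minus strand with 6 exons and 3010 exon bases. Fam19a2 lies on the same chromosome, at chr10:122701132-123178260 on the plus strand, with 7 exons over 477.1 kb and 4610 exon bases. GENCODE of the same build lists all 4 as protein coding. Coding bases make up 32% of the exon bases of Slitrk2, 37.4% of Phyhipl and 8.79% of Fam19a2, against 56.7% of Endou.

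Slitrk2, the adhesion protein, was counted only in LN-BEC. It had 70, 82 and 44 counts in LN-BEC replicates 1, 2 and 3, and 0 in each of the 4 LN-LEC and 3 D-LEC libraries. These correspond to normalized counts of 61.3, 70.9 and 46.2, or 59.5 ± 12.4 (SD, n = 3). Every LN-BEC library thus stood above every lymphatic library. A count of 0 does not show that the transcript is missing, and 3 counts over each group, taken as the upper limit, still put LN-BEC at least 81.1-fold higher than LN-LEC and at least 60.3-fold higher than D-LEC.

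Fam19a2, the secreted protein, was next to absent from both lymphatic populations. It had 158, 260 and 154 counts in the LN-BEC libraries, 0, 2, 0 and 1 in LN-LEC replicates 1 to 4, and 0, 0 and 1 in D-LEC replicates 1 to 3. Normalized counts were 138, 225 and 162 in LN-BEC, or 175 ± 44.8 (SD, n = 3), against 0.792 ± 1.2 (n = 4) in LN-LEC and 0.275 ± 0.477 (n = 3) in D-LEC. The LN-BEC libraries were far above the rest, and LN-LEC and D-LEC overlapped. On summed counts LN-BEC was 237 times LN-LEC, with a 95% Clopper-Pearson interval of 80.6 to 1151, and 528 times D-LEC, with an interval of 94.4 to 20894 that reflects the single D-LEC count. Such intervals cover counting error only. The fitted log2 fold change from LN-BEC to D-LEC was -8.60 (SE 0.69).

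Phyhipl differed from the others in D-LEC. It had 103, 112 and 47 counts in LN-BEC, 1, 0, 0 and 0 in LN-LEC, and 2, 1 and 7 in D-LEC. Normalized counts were 90.2, 96.9 and 49.4 in LN-BEC, or 78.8 ± 25.7 (SD, n = 3), and 3.1 ± 2.44 (n = 3) in D-LEC. LN-BEC replicate 3 was the lowest of its group, and the only LN-LEC count came from replicate 1. LN-BEC was 24.2 times D-LEC on summed counts (95% interval 12.9 to 51) and 325 times LN-LEC (57.9 to 12891). The fitted log2 fold change from LN-BEC to D-LEC was -4.56 (SE 0.62).

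Endou was the most abundant of the 4 and the steadiest between pools. It had 535, 537 and 520 counts in LN-BEC, 1, 1, 2 and 5 in LN-LEC, and 5, 0 and 0 in D-LEC. Normalized counts were 468, 464 and 546 in LN-BEC, or 493 ± 46.1 (SD, n = 3), a coefficient of variation of 9.36% against 20.9% for Slitrk2, 25.6% for Fam19a2 and 32.6% for Phyhipl. All Endou counts of D-LEC came from replicate 1, at 6.31 normalized counts, whereas every LN-LEC library held at least 1. LN-BEC was 220 times LN-LEC (95% interval 115 to 481) and 294 times D-LEC (126 to 907). The fitted log2 fold change from LN-BEC to D-LEC was -8.08 (SE 0.57).

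**Figure D1:**
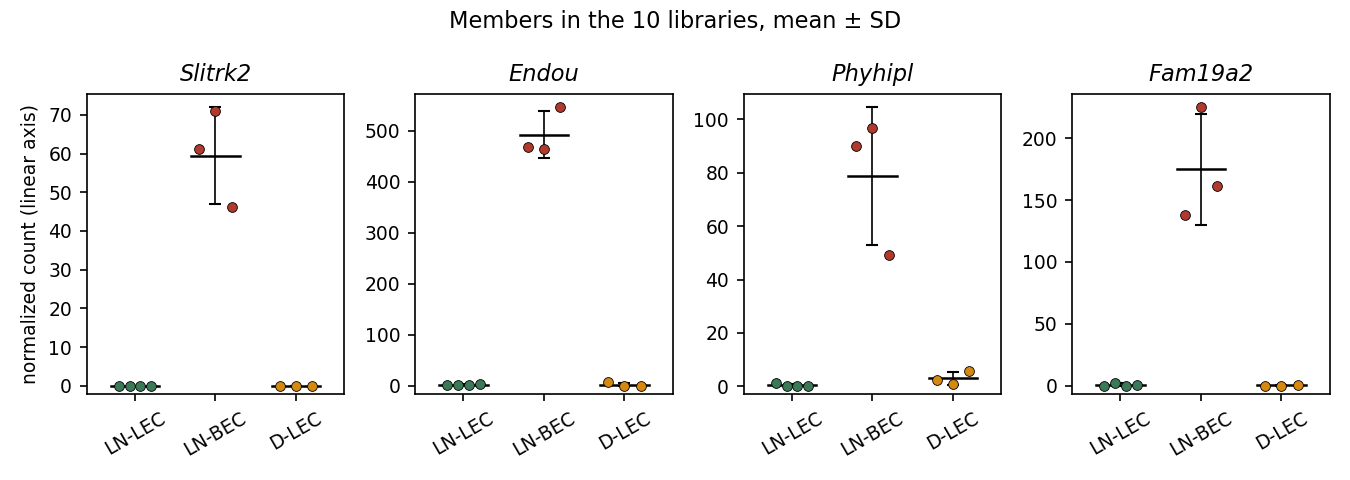
Normalized counts (linear vertical axes, a separate scale for each gene) of Slitrk2, Endou, Phyhipl and Fam19a2 in the 10 libraries, with points for libraries, horizontal lines for means and error bars for the SD. All LN-BEC points stand clear of the others, from 46.2 to 70.9 for Slitrk2 and from 464 to 546 for Endou, while Phyhipl reaches 5.78 in D-LEC.

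The D-LEC level is the part of these values that the selection did not fix, and it ran from 0 counts for Slitrk2 through 1 for Fam19a2 and 5 for Endou to 10 for Phyhipl, summed over 3 libraries. LN-BEC was chosen to be high and LN-LEC to be low, so no p-value is given here for a member against either of them. The adjusted p-values of members printed with the processing alternatives below show only how the fit moves. All 4 genes passed the filter of a mean normalized count of 1 in at least 1 population, Slitrk2 and Fam19a2 through LN-BEC alone. Between the lymphatic populations the fitted log2 change from LN-LEC to D-LEC was 3.15 (SE 1.03) for Phyhipl. That value rests on 10 counts against 1, and the libraries overlap. Endou differed by -0.36 (SE 0.92) and Fam19a2 by -0.96 (SE 1.21), and for Slitrk2 both populations were at 0. For Endou the mean normalized count was slightly higher in D-LEC and the fitted change slightly negative, so the 2 measures differ in sign. Over all 15320 genes tested with edgeR's quasi-likelihood test, 25.6% were called lower and 22.5% higher in D-LEC than LN-BEC at an adjusted p under 0.05, with a median log2 fold change of -0.05. In D-LEC against LN-LEC, called genes made up 21.7% on the higher side and 24.1% on the lower. These shares are printed as background, and nothing is read from them about the members.

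Per exon length, the levels in LN-BEC ran from 6.08 ± 0.564 FPKM for Endou through 1.27 ± 0.329 for Fam19a2 and 0.878 ± 0.287 for Phyhipl to 0.251 ± 0.0531 for Slitrk2 (SD, n = 3). FPKM are fragments per kilobase of exon and 1e6 fragments, computed here from the deposited exon lengths. Endou was above Fam19a2, and Phyhipl above Slitrk2, in each of the 3 LN-BEC libraries. Fam19a2 and Phyhipl overlapped, since they were at 1 FPKM each in LN-BEC replicate 1 and Fam19a2 was higher in replicates 2 and 3. In LN-BEC, 56.3% of the genes tested had a lower FPKM than Endou, 34.3% than Fam19a2, 30.5% than Phyhipl and 20.1% than Slitrk2. For comparison, the BEC markers Sox17, a transcription factor, and Notch4, a receptor, were at 40.2 and 20.9 FPKM in LN-BEC.

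The residual level in LN-LEC is given here beside that of genes that mark blood endothelium in the same libraries. The members were picked for being low in LN-LEC and the markers were not, so a lower share for a member is the selection itself. In LN-LEC, Endou was at 0.404% ± 0.182 of its LN-BEC mean, Phyhipl at 0.411% ± 0.823 and Fam19a2 at 0.453% ± 0.687 (SD, n = 4). The 7 BEC markers were at 1.04% (Sox17) to 3.77% (Emcn, an endothelial sialomucin) of their LN-BEC means in the same libraries. The limit of 3 counts over the group is 1.25% of LN-BEC for Slitrk2, 0.944% for Phyhipl and 0.425% for Fam19a2. For these the depth could not show a level as low as that of Endou. In D-LEC, Phyhipl was at 3.94% ± 3.1 of LN-BEC (n = 3), Endou at 0.426% ± 0.739 and Fam19a2 at 0.157% ± 0.273. The Fam19a2 value lies under its limit of 3 counts over D-LEC, 0.571%, so it cannot be placed below Endou. The markers covered a wide span there, from 0.233% for Nrp1, a VEGF co-receptor, to 36.9% for Emcn.

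**Figure D2:**
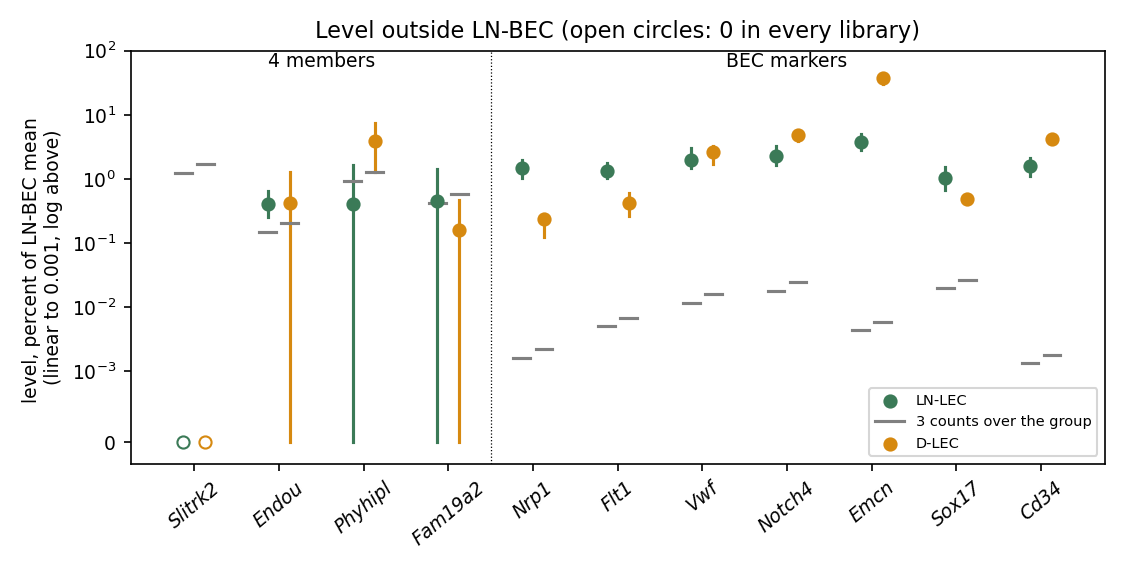
Level in LN-LEC (green) and D-LEC (orange) as percent of the LN-BEC mean for the 4 genes and 7 BEC markers, on an axis that is linear to 0.001 and logarithmic above. Circles are means, vertical lines run from the lowest to the highest library, and grey bars give what 3 counts over the group would be; Endou in LN-LEC lies at 0.404%, the markers, which were not picked for being low there, at 1.04% to 3.77%.

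The LN-BEC pools came in a different order for different members. Slitrk2 stood at 103%, 119% and 77.7% of its LN-BEC mean in replicates 1, 2 and 3, and Phyhipl at 114%, 123% and 62.6%. Fam19a2 was highest in replicate 2 as well, at 129%, but lowest in replicate 1, at 79%. Endou alone was highest in replicate 3, at 111%, with 95% and 94.2% in the other 2. The median over 12 genes of high endothelial venules was 99.9%, 113% and 87.4%, that over 6 capillary genes 92.1%, 88.7% and 117%, and that over 7 BEC markers 102%, 99.4% and 99.5%. Leukocyte RNA varied over the same libraries: the T cell markers had medians of 92.8%, 131% and 61.8%, the B cell markers 119%, 106% and 74.6%, and Ptprc was at 113%, 114% and 73.1%. The other lists ran the other way, with medians of 87.4%, 60.3% and 136% for myeloid markers and 85.2%, 74.7% and 157% for plasma cell markers. These lists are a weak guide to leukocyte RNA. The myeloid medians lean on genes near the floor in LN-BEC, such as Itgam (6.93), Itgax (3.84) and Emr1 (3.59). The plasma cell sum was highest in D-LEC (12036 to 12492), where Ptprc was lowest. Replicate 3 was thus lowest in Slitrk2, Phyhipl, T cell, B cell and venule genes and in Ptprc, and highest in Endou, myeloid and plasma cell genes. With 3 pools no relation could be tested, and the part of leukocyte RNA in these levels was not tested. Without LN-BEC replicate 3 the LN-BEC means were 66.1 for Slitrk2, 93.5 for Phyhipl, 182 for Fam19a2 and 466 for Endou. Without LN-LEC replicate 4, which held 5 of the 9 Endou counts of its group, the LN-LEC mean of Endou was 1.61 in place of 1.99.

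The B cell markers, which matter for Endou in particular, were present in every population. Ms4a1, which encodes CD20, read 122 in LN-BEC on average, 17.1 in LN-LEC and 5.78 in D-LEC. Pax5, the B cell lineage factor, was at 3.32 in LN-BEC and at 0 in every LN-LEC and D-LEC library. Summed over the 6 B cell markers in the table, LN-LEC (710 to 1475) overlapped LN-BEC (934 to 1400), because Cr2 and Cd79b were as high in LN-LEC. Markers of Schwann cells and neurons, where 3 of the 4 genes are best known, summed to 271 to 703 in LN-BEC, 208 to 419 in LN-LEC and 192 to 337 in D-LEC. The values of 703 and 419 came from LN-BEC replicate 3 and LN-LEC replicate 4. Without them the sums were 271 and 288 in LN-BEC and 208 to 326 in LN-LEC. The synaptic gene Snap25 was at 0 in every LN-BEC and D-LEC library and at most at 1.26 in LN-LEC. Of the 8 genes tested on this list, 1 was called higher and 1 lower in LN-BEC than LN-LEC. Over all genes tested these shares were 18.4% and 19.8%. Rbfox3 was the higher one, at 55.7 in LN-BEC, 11.2 in LN-LEC and 71.1 in D-LEC (edgeR adjusted p = 0.000524 between LN-BEC and LN-LEC). Syn1 was the lower one, at 6.05, 58.9 and 3.29 in the same order (edgeR adjusted p = 0.000101). Sox10, a Schwann cell factor, was uneven, at 149 ± 186 in LN-BEC (41.5 to 363) and 61 ± 63.2 in LN-LEC (21.6 to 155). It did not pass between these populations (edgeR adjusted p = 0.389). Their part in the levels of the 4 genes was not tested.

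The other SLITRK genes did not share the pattern of Slitrk2 as a family. Slitrk4, like Slitrk2 on the X chromosome, came closest, with 17.1 ± 2.98 normalized counts in LN-BEC (n = 3), 0.638 ± 0.737 in LN-LEC (n = 4) and 5.45 ± 3.94 in D-LEC (n = 3). The LN-BEC level was above the LN-LEC level by 4.34 on the log2 scale (SE 0.83, adjusted p = 0.000759). Slitrk5 was the reverse, at 80.2 ± 8.22 in LN-LEC against 0.638 ± 0.561 for LN-BEC and 0 for all 3 D-LEC libraries, a log2 change of -6.78 (SE 0.57, adjusted p = 1.6e-06) from LN-LEC to LN-BEC. Slitrk6 was uneven, with 11.4, 6.05 and 35.7 in the LN-BEC libraries and 0, 0, 1.13 and 15.1 in LN-LEC, and did not pass between these populations (adjusted p = 0.247). The highest value of each group came from LN-BEC replicate 3 and LN-LEC replicate 4, and without both libraries Slitrk6 was called higher in LN-BEC than LN-LEC (log2 change 4.03, SE 1.28, adjusted p = 0.0285). Slitrk1 and Slitrk3 were too low to be tested. The phosphatases that bind SLITRK proteins were higher in LN-LEC than LN-BEC: Ptprd at 440 against 61, Ptprs at 4191 against 1251 and Ptprf at 2015 against 231, all with adjusted p of at most 8.01e-05. Apart from Slitrk2, 1 of the 6 family and phosphatase genes tested was called higher and 4 lower in LN-BEC than LN-LEC, where 18.4% and 19.8% of all genes tested were called, and the median log2 change was -2.32 against 0.01 for all genes.

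The TAFA family was spread over the populations. Fam19a3 was at 58.3 ± 1.46 in LN-BEC (n = 3), 7.76 ± 5.23 in LN-LEC (n = 4) and 42.3 ± 4.93 in D-LEC (n = 3), and was called higher in LN-BEC than LN-LEC (log2 change 2.95, SE 0.44, adjusted p = 0.000106). Unlike Fam19a2 it was therefore a gene of both LN-BEC and D-LEC. Fam19a5 was led by D-LEC with 222 ± 21.9, while LN-LEC had 24.8 ± 11 and LN-BEC 2.91 ± 2.21, with a log2 change from LN-BEC to D-LEC of 6.25 (SE 0.51, adjusted p = 2.2e-07). Fam19a1 had at most 9.63 normalized counts in any library and Fam19a4 was not tested. Among the neurexins, which bind TAFA proteins, Nrxn2 was at 14.7 in LN-BEC, 582 in LN-LEC and 449 in D-LEC. Of the 6 other genes tested on this list, 1 was called higher and 3 lower in LN-BEC than LN-LEC, with a median log2 change of -2.08. Over all genes tested the shares called were 18.4% and 19.8%.

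**Figure D3:**
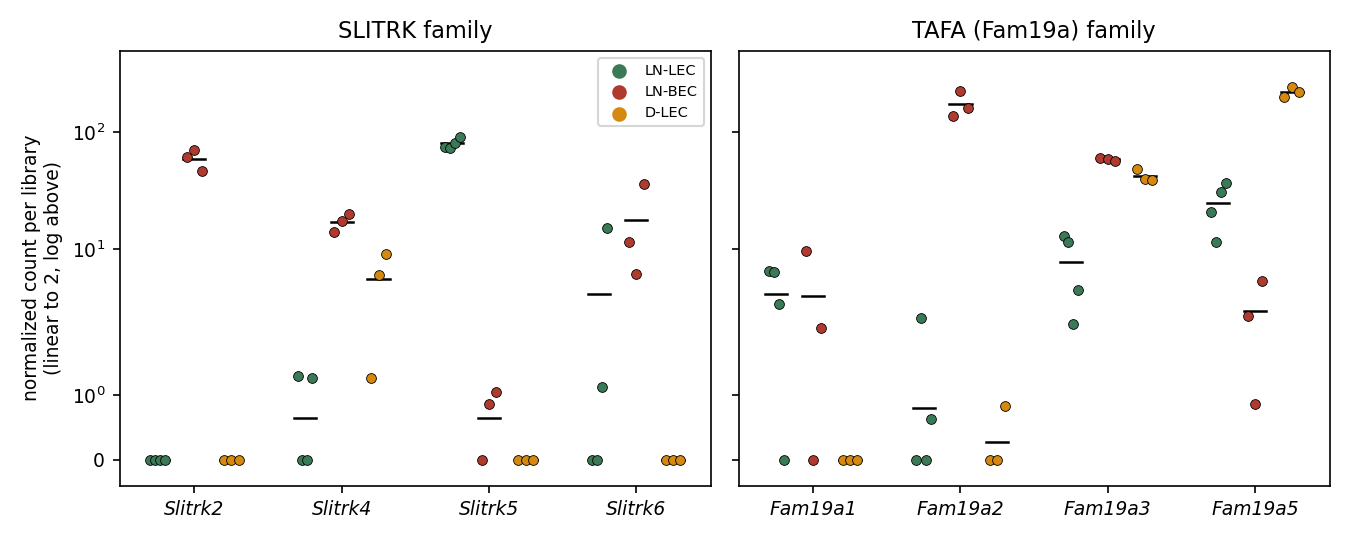
Normalized counts per library for 4 SLITRK genes and 4 TAFA (Fam19a) genes, with a colour for each population, on an axis that is linear to 2 and logarithmic above, with lines for means. Slitrk5 sits near 80.2 in LN-LEC alone, Fam19a5 near 222 in D-LEC and Fam19a2 near 175 in LN-BEC.

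The enzyme lists around Phyhipl and Endou were read in the same way. Phyhip, the nearest relative of Phyhipl, was low in all populations, at 3.25 ± 2.08 (LN-BEC), 2.17 ± 2.17 (LN-LEC) and 8.41 ± 1.88 (D-LEC), and passed no comparison. Phyh, which encodes phytanoyl-CoA hydroxylase, was lower in LN-BEC than LN-LEC (489 against 760, log2 change -0.66, SE 0.14, adjusted p = 0.00146), as was Hacl1, the lyase of the next steps (227 against 335, adjusted p = 0.00205). Of the 11 other genes tested on this list, 0 were called higher in LN-BEC than LN-LEC and 4 lower by edgeR. The counts were the same by DESeq2 and at an unadjusted p under 0.05, and the median log2 change was -0.17. Over all genes tested, 18.4% were called higher and 19.8% lower, which is also the background of the next list. Among RNA-cleaving enzymes, Endod1 was the 1 of 10 called higher in LN-BEC (6053 against 4112, adjusted p = 0.000604) and 3 were lower, among them the angiogenin locus genes Ang and Rnase4. Ang and Rnase4 share exons at their start, so their counts are uncertain, and Rnaset2a, which has a near-identical copy, was at 0 in every library. Between D-LEC and LN-BEC, 3 of the 10 RNA-cleaving enzymes were called higher and 3 lower in D-LEC, beside 22.5% and 25.6% of all genes tested. Rnase1, a secreted pancreatic-type ribonuclease, was highest in LN-BEC replicate 3 (825) and LN-LEC replicate 4 (298), the libraries that also led in epithelial genes. Its means without them were 141 in LN-BEC and 143 in LN-LEC.

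The genes next to each member were read from the same table. Phyhipl overlaps Fam13c, a gene of unknown function on the opposite strand whose end meets that of Phyhipl, and Fam13c had the same order of populations. It had 677, 622 and 338 counts in LN-BEC, 1, 3, 3 and 9 in LN-LEC and 23, 24 and 30 in D-LEC, and its lowest LN-BEC value, 71.7% of the mean, fell in replicate 3 as for Phyhipl. Unlike Phyhipl, its D-LEC and LN-LEC libraries did not overlap (log2 change 2.68, SE 0.35, adjusted p = 2.64e-05). The genes share 1047 exon bases at chr10:70020434-70021480, which is 34.8% of the exon bases of Phyhipl and 29.8% of those of Fam13c, and none of these are coding in either gene. Strand was not used in counting, so reads of either gene there cannot be told apart. By the stated counting options, fragments that hit both genes would not be assigned, in which case the FPKM of Phyhipl would leave out what fell in the shared stretch. The reads themselves were not examined here. The ratio of Fam13c to Phyhipl counts was 5.55 to 7.19 in the LN-BEC libraries and 4.29 to 24 in D-LEC, where Phyhipl had few counts.

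**Figure D4:**
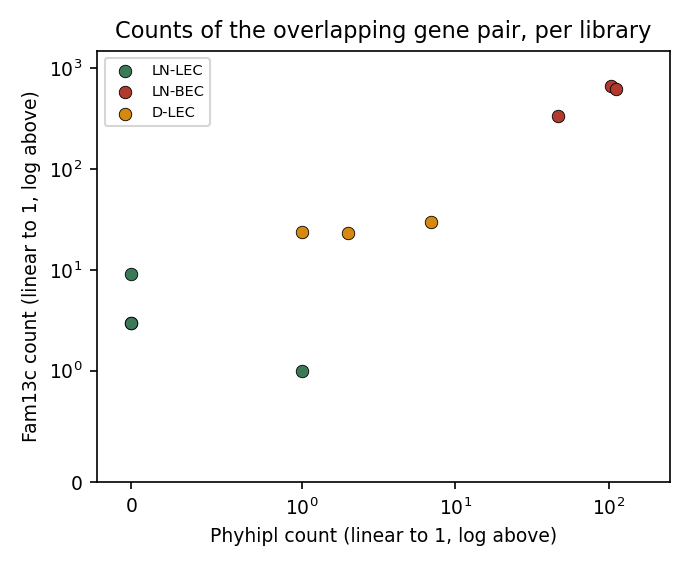
Counts of Phyhipl (horizontal) and of the overlapping gene Fam13c (vertical) in each of the 10 libraries, on axes that are linear to 1 and logarithmic above. LN-BEC libraries lie at 47 to 112 Phyhipl counts and 338 to 677 Fam13c counts, and the 3 D-LEC libraries, at 23 to 30 Fam13c counts, lie between these and LN-LEC; 2 LN-LEC points coincide at 0 and 3.

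Next to Endou on chromosome 15, at a distance of 13.4 kb and on the same strand, lies Rapgef3, which encodes the cAMP-activated exchange factor EPAC1. It was at 1815 ± 23.8 in LN-BEC (n = 3), 301 ± 25.5 in LN-LEC (n = 4) and 174 ± 14.6 in D-LEC (n = 3), a log2 change of 2.57 (SE 0.1, adjusted p = 1.83e-10) between LN-BEC and LN-LEC. On the other side, at 5.2 kb, Rpap3 was lower in LN-BEC than LN-LEC, at 262 ± 41.2 against 1126 ± 66.8. Usp15, 67.2 kb from Fam19a2, did not pass between any of the populations (1956, 1974 and 2243 in LN-BEC, LN-LEC and D-LEC), and Slc16a7, on the far side at 1486.3 kb, read 349 ± 20.8 for LN-LEC and 72.4 ± 45.1 for LN-BEC. Bicc1, beyond Phyhipl at 325.8 kb, was at 96 in LN-BEC and 134 in LN-LEC (adjusted p = 0.169). The nearest named genes to Slitrk2, Ctag2 and Mir743, had no counts in any library.

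Of the 15320 genes tested, 1395 (9.11%) had a mean under 2 in LN-LEC. The members are among them by the way they were picked, and their place there is no finding. The genes outside the 4 with the highest LN-BEC mean count, which is not scaled for length, were Necab2, a calcium-binding protein (305 ± 30.7 in LN-BEC and 0 in D-LEC), Zfp366, a zinc finger protein (222 ± 51.9 and 0), Cmya5, a muscle scaffold protein (132 ± 34.1 and 31.9 ± 9.41), March4, a ubiquitin ligase (114 ± 8.57 and 0.275 ± 0.477) and the pseudogene Nlrp1c-ps (83.7 ± 23 and 0). The limit of 2 runs just above Endou, at 1.99 in LN-LEC, and Cmya5, at 1.95. Of the 17 genes that also had at least 50 in LN-BEC, 9 were under 2 in D-LEC, Slitrk2 and Fam19a2 among them. Phyhipl at 3.1 and Endou at 2.1 were just above that limit, and 4 others were at 30 or more in D-LEC. Gpr30, which encodes a G protein-coupled estrogen receptor, was higher in D-LEC (140 ± 31.4) than in LN-BEC (66.9 ± 4.94), so near absence from LN-LEC did not in itself come with absence from D-LEC; these genes were noticed after their values were seen.

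**Figure D5:**
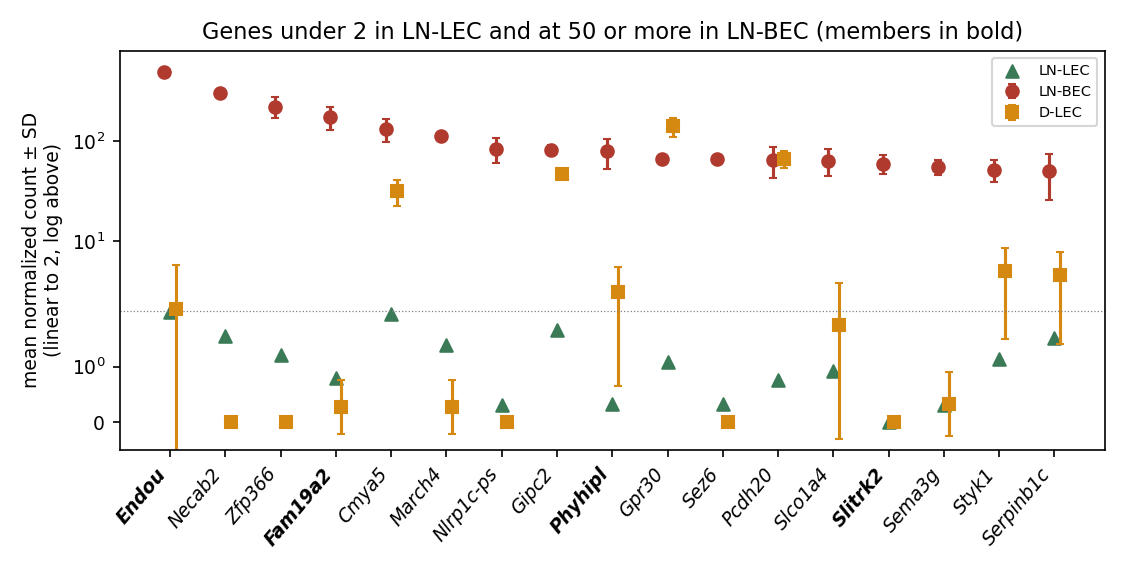
Mean normalized counts in LN-BEC (circles), D-LEC (squares) and LN-LEC (triangles) of the 17 genes under 2 in LN-LEC and at 50 or more in LN-BEC, in order of LN-BEC, with SD bars for LN-BEC and D-LEC and the 4 members in bold, on an axis that is linear to 2 and logarithmic above. In D-LEC the genes split, with 9 under 2 (dotted line) and 4 at 30 or more.

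The genes whose pattern was most like each member were found by Pearson correlation of log2(normalized count + 1) over the 10 libraries. For Slitrk2 these were Sdk2, a synaptic adhesion protein, Klk7, Masp1, Ndst4 and Kcna3 (r of 0.998 to 1), all at 0 in every LN-LEC and D-LEC library and at 2.44 to 21.8 in LN-BEC, so few counts stand behind each. For Endou they were Dcbld1, Adcy4, Hspg2 (the basement membrane proteoglycan perlecan), Ctnnbip1 and Krt222 (r of 0.985 to 0.988), and for Phyhipl Acvrl1 (the endothelial BMP receptor ALK1), Tmem144, Dlg3, Ick and Kremen2 (r of 0.986 to 0.989). For Fam19a2 they were March4, Smad6, an inhibitor of BMP signalling, Dlc1, Pls3 and Necab2 (r of 0.987 to 0.992). The 5 genes most like Endou in shape were far from absent in LN-LEC, from 51.2 for Krt222 to 4300 for Adcy4. Correlations above 0.95 were common, with 333 genes for Slitrk2, 201 for Endou, 145 for Phyhipl and 281 for Fam19a2, since any gene that separates LN-BEC from both lymphatic populations scores high over libraries that share these groups. Between the members themselves r ran from 0.895 for Endou with Phyhipl to 0.985 for Slitrk2 with Fam19a2.

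Genes of named vessel types gave the setting for these levels. All 12 high endothelial venule genes in the table were called higher in LN-BEC than LN-LEC and lower in D-LEC than LN-BEC. Their median log2 changes were 2.38 and -5.43. Over all genes tested, 18.4% were called higher and 19.8% lower in LN-BEC than LN-LEC, and 25.6% lower in D-LEC than LN-BEC. Glycam1, the sulfated mucin ligand of L-selectin, still read 72736 in LN-LEC against 2427459 in LN-BEC, and Madcam1, the ligand of the gut-homing integrin, 3547 against 8377. Of the 10 arterial genes, 6 were called higher and 4 lower in LN-BEC than LN-LEC, and Sema3g, a semaphorin of arterial endothelium, was the one that shared the near absence from both lymphatic populations (55.1 ± 9.56 in LN-BEC, 0.314 ± 0.629 in LN-LEC and 0.334 ± 0.578 in D-LEC). Of the 6 capillary genes, 4 were called higher in LN-BEC than LN-LEC and 0 lower by edgeR. DESeq2 gave 5 and 0, and an unadjusted p under 0.05 gave 4 and 0. In D-LEC against LN-BEC, 5 of the 6 were called lower and 0 higher, beside 25.6% and 22.5% of all genes tested. The median log2 change was -4.25. The exception was Gpihbp1, the capillary lipase anchor, at 10969 in D-LEC against 8665 in LN-BEC (edgeR adjusted p = 0.382). Pericyte and smooth muscle markers were also unequal. They summed to 5592 to 7094 in LN-BEC, 3664 to 5746 in LN-LEC and 902 to 1262 in D-LEC. Most of the sums in LN-BEC and LN-LEC came from Rgs5, at 4393 and 3856. Of the 7 markers, 4 were called higher and 1 lower in LN-BEC than LN-LEC. Among the higher were Acta2 (872 against 213) and Cspg4 (50.9 against 2.99). The part of these markers in the levels of the 4 genes was not tested.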

How the data were processed

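RNA from sorted LN-LEC (4 libraries), LN-BEC (3) and D-LEC (3) was amplified (Ovation RNA-Seq System V2) and sequenced in pairs. The authors trimmed the reads, used STAR for alignment to mm9 and featureCounts 1.4.4 to count fragments on the exons of a gene symbol, without strand and without fragments that mapped to several places or genes, and the deposited values are raw counts (22429940 to 48906070 per library) beside exon lengths. At the shallowest depth 3 counts are 0.134 CPM. The 4 genes and all gene lists were chosen with earlier results of these data known. Named genes (3831 predicted, clone or locus rows were left out) whose mean normalized count reached 1 in a population were tested in edgeR 4.0.16 (R 4.3.3): TMM, a robust quasi-likelihood fit of all 10 libraries and Benjamini-Hochberg adjustment, with calls at an adjusted p under 0.05. The fit was tested on simulated data. Levels are counts over DESeq2 1.42.0 size factors, and FPKM use TMM-scaled library sizes. Further genes were named by rule: genes of the fixed lists and markers, the 5 genes most like each member, the nearest named gene on each side, and the 5 highest in LN-BEC of those under 2 in LN-LEC. No library pair held identical values. Replicates were numbered in accession order. Each library was a pool of mice, so the p-values measure the spread between pools. Alternatives were no filter, DESeq2 factors, the DESeq2 test, only the populations compared, each library left out, and, added after seeing the data, LN-BEC replicate 3 and LN-LEC replicate 4 both left out. Promoter letters came from RefSeq, and protein sequences were not used here. Some genes of the lists are not reported here.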

Additional observations from a re-analysis of the deposited data

Results flagged for a closer look

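In the group of 4 LN-LEC libraries, 5 of 39 genes checked had 1 library far from the other 3 by Dixon's criterion. For 4 of them the other 3 libraries were at 0, so that any count in a single library meets the criterion, and the usual rate of about 1 in 20 by chance does not apply. Phyhipl stood at 1.3 normalized counts in LN-LEC replicate 1, its single count there, and Acox2 at 2.26 in replicate 3. LN-LEC replicate 4, the deepest library, held the other 3, with Slitrk6 at 15.1, Slc27a2 at 6.92 and Fam19a4 at 0.629.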

How the results depend on the processing

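The members were selected on LN-BEC and LN-LEC, so the adjusted p-values here show how the edgeR fit moves and are no support for a difference. For D-LEC against LN-BEC, fits without 1 library gave log2 fold changes of -12.02 to -7.39 for Endou, -10.46 to -8.16 for Fam19a2 and -5.45 to -4.15 for Phyhipl. The adjusted p of Slitrk2 in this comparison ran from 3.01e-05 to 0.000325. The -12.02 of Endou came without D-LEC replicate 1, where D-LEC is at 0 and the value depends on the prior count. Between D-LEC and LN-LEC the call of Phyhipl (3.15) was lost with only these populations in the fit (3.13, adjusted p = 0.0584) and ranged from 2.25 to 4.82, with adjusted p of 0.0121 to 0.152, when 1 library was left out. The fitted change of Endou ranged from -4.30 to 0.33. It was called without D-LEC replicate 1 (-4.30, adjusted p = 0.0152), where D-LEC is at 0 and the value depends on the prior count, and it reversed to 0.03 without LN-LEC replicate 4, 0.20 without D-LEC replicate 2 and 0.33 without D-LEC replicate 3. Fam19a2 ranged from -2.82 to 0.08 and reversed to 0.077 without LN-LEC replicate 2. Without both LN-BEC replicate 3 and LN-LEC replicate 4, an alternative chosen after seeing the data, Phyhipl was at 2.65 (adjusted p = 0.0664) and Endou reversed to 0.042 (adjusted p = 0.989). The cause was not tested. The number of genes called over the whole table stayed within 1.5 times its main value in each comparison: 5062 to 6018 for LN-BEC against LN-LEC, 6569 to 7376 for D-LEC against LN-BEC and 6214 to 7219 for D-LEC against LN-LEC without 1 library. By rank correlation, 2, 2, 1 and 0 of the 5 most similar genes remained for Slitrk2, Endou, Phyhipl and Fam19a2. No paired analysis was possible because the labels give no replicate numbers that tie pools of different populations. Depth limits all statements on LN-LEC and D-LEC, where the 4 genes had 0 to 10 counts per population.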

Other observations

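Several other genes, chosen after their values were seen, also had a mean under 2 in LN-LEC and at least 50 in LN-BEC. Sez6, a neuronal transmembrane protein, was at 66.3 ± 3.47 in LN-BEC (SD, n = 3) and at 0 in D-LEC. Slco1a4, an organic anion transporter best known from brain endothelium, was at 63.7 ± 19.1 in LN-BEC and 1.76 ± 2.05 in D-LEC. Pcdh20, a protocadherin, was instead shared, at 64.8 ± 21.7 in LN-BEC and 66.5 ± 12.6 in D-LEC, as was Gipc2, at 82.3 ± 8.28 and 47.4 ± 4.61.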
